A study of Mus musculus with 18 samples.

Results

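The genes described here are 55 named genes of the contractile apparatus, chosen with earlier results of these data known. They are actins, myosins, troponins, tropomyosins, titin and M-band proteins, Z-disc and filament-linking proteins, and a few stretch and stress genes. The other gene lists below were also chosen with those results known. Counts set beside whole-table shares are therefore descriptions and not independent support. The deposited read counts list 54 of the 55 (Myl7, the atrial regulatory light chain, is not analysed here) among 29112 genes. A filter on low counts left 45 of them among the 15074 genes tested, so every count of called genes is over those 45. The 9 listed genes that were not tested were Myh6, Actc1, Tnni3, Myl3, Mybpc3, Csrp3, Tcap, Cnn1 and Nppa. Dusp27 is the older name of Styxl2.

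The cells were HL-1, per the labels, a mouse line derived from atrial cardiomyocytes. The 18 libraries form 6 groups of 3. Cells in high glucose were transfected with a miR-200a-3p mimic (mimic), the negative control of that mimic (mimic control), a miR-200a-3p inhibitor (inhibitor) or the negative control of that inhibitor (inhibitor control), and were harvested 48 h later. Untransfected cells received high glucose (high glucose) or vehicle (vehicle), so every group except vehicle was in high glucose. The glucose concentration, its duration and whether untransfected cells saw the transfection reagent are not given in the sources used here. All groups come from the same cell line, and the labels do not say that replicates were separate cultures, so a p-value here speaks only of how far these libraries spread, and that spread may be technical.

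Muscle contracts when myosin heads on thick filaments pull actin thin filaments toward the middle of the sarcomere. Troponin and tropomyosin on the thin filament make this pull depend on calcium, titin spans from the Z-disc to the M-band as a spring, and the Z-disc ties neighbouring sarcomeres to each other and to desmin and integrins. Cardiac, skeletal and smooth muscle use different genes for many of these parts, and embryonic muscle uses forms that the adult loses. Working atrial myocytes carry Myh6, Actc1, Tnni3, Tnnt2, Myl4, Myl7 and Mybpc3 in their sarcomeres and secrete the peptide of Nppa.

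miR-200a-3p is the microRNA that the mimic copies and the inhibitor opposes, and its sequence is shown because the sites searched in the contractile genes are read from it. The capitals mark the seed, bases 2 to 8, and the sequence is RefSeq's (GRCm38.p6, chr4:156054911-156054932, minus strand).
mmu-miR-200a-3p: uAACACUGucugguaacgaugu

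Words complementary to that seed were searched in the 3′ UTRs of canonical GENCODE M39 transcripts: CAGTGTTA (8mer), CAGTGTT (7mer-m8, contained in the 8mer) and AGTGTTA (7mer-A1, also contained in it), on the transcribed strand. Of the 53 listed genes with such a UTR (the canonical transcript of Xirp1 has none), 5 held a match (9.43%) and 0 held the 8mer. Of the 44 tested contractile genes with one, 5 held a match (11.4%). Of 12900 tested genes with one, 3554 held a match (27.6%) and 685 the 8mer (5.31%). These shares were not adjusted for UTR length, which bears on how often a word occurs. The 8 matches lie in Ldb3, Pdlim5, Rcan1, Synpo2 and Tnnt2, each in the gene's last exon, and are shown with the word in capitals (GRCm39). A match is a stretch of letters and not a tested target site.
Ldb3, chr14:34248892-34248898, minus strand: ggcttgtattggCAGTGTTtg
Ldb3, chr14:34249042-34249048, minus strand: gtgagcatgcatAGTGTTAag
Ldb3, chr14:34250977-34250983, minus strand: cgatgtgccaagCAGTGTTtg
Pdlim5, chr3:141946652-141946658, minus strand: caagttagttatAGTGTTAtt
Rcan1, chr16:92188934-92188940, minus strand: ttgccgccggccCAGTGTTtc
Synpo2, chr3:122902038-122902044, minus strand: attgtgagcactCAGTGTTtc
Synpo2, chr3:122905996-122906002, minus strand: atgaatcgtttgCAGTGTTga
Tnnt2, chr1:135780036-135780042, plus strand: gccccctccctgAGTGTTAca

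The promoters of Acta1, Acta2 and Myl9 are shown because these genes had very different levels across the groups. The promoter of the third muscle actin, Actc1, a gene with only 77 reads in all, is shown beside these promoters. Each runs from 250 bases before to 50 after the RefSeq start (GRCm38.p6), and capitals mark the CArG box, the motif that serum response factor (SRF) binds, searched on both strands. The box was found in 535 of 32851 RefSeq promoters (1.63%) and in 9 of 58 promoters of the contractile genes (15.5%), which belong to 8 of the 47 genes with a promoter entry: Acta1, Actc1, Ldb3, Myl3, Myl7, Myl9, Myom1 and Nebl. No match for Acta2 says only that a strict box is not in this window.
Acta1, skeletal actin, chr8:123894726-123895025, minus strand: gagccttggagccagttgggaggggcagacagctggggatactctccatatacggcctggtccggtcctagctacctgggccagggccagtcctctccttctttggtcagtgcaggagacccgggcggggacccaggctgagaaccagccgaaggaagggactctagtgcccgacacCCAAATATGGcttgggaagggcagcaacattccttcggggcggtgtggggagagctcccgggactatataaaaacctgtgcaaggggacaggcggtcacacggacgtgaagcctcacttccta
Actc1, cardiac actin, chr2:114052826-114053125, minus strand: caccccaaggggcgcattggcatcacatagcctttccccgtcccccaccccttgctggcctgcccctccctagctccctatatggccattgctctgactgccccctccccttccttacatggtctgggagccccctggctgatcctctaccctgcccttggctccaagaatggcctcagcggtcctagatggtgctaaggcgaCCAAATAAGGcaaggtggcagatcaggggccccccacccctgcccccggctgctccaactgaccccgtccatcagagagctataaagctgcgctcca
Acta2, smooth muscle actin, chr19:34255324-34255623, minus strand: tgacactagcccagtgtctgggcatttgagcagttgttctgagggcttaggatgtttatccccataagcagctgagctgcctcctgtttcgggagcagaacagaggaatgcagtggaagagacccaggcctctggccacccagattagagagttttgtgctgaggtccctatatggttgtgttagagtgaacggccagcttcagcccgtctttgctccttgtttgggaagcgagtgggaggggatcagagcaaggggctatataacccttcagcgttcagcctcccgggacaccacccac
Myl9, regulatory light chain of smooth muscle, chr2:156775214-156775513, plus strand: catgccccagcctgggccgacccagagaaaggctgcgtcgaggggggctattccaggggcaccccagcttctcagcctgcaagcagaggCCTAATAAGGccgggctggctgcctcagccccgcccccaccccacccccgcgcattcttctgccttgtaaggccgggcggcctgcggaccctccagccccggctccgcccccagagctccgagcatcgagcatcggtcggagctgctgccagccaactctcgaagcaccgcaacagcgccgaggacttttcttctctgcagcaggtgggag

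Library totals lay between 33655916 and 37928790 reads, and a count of 0 allows up to 3 reads, or 0.0791 to 0.0954 CPM by library (CPM, counts scaled to library size with TMM; counting error only). Of the listed contractile genes, 26 averaged at least 1 CPM in mimic, 27 in mimic control, 38 in inhibitor, 38 in inhibitor control, 40 in high glucose and 39 in vehicle cells. Together they held 0.550 to 0.576% of reads in mimic, 0.673 to 0.675% in mimic control, 0.675 to 0.692% in inhibitor, 0.677 to 0.692% in inhibitor control, 1.20 to 1.34% in high glucose and 1.22 to 1.30% in vehicle libraries. Markers of other cells moved with the groups. A list of 9 fibroblast genes, all of them listed, summed to 1073 to 1148 CPM in mimic, 1175 to 1198 in mimic control, 2347 to 2473 in inhibitor, 2407 to 2515 in inhibitor control, 10549 to 11990 in high glucose and 10037 to 10723 in vehicle libraries. A list of 9 macrophage genes summed to 1135 CPM in mimic replicate 2 and to 27.8 to 65.7 CPM in the other 17 libraries. Lower levels of a gene can come from fewer cells of a type or from less RNA per cell, which cannot be told apart in bulk RNA, and the part of these other cells in the results was not tested.

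**Figure D1:**
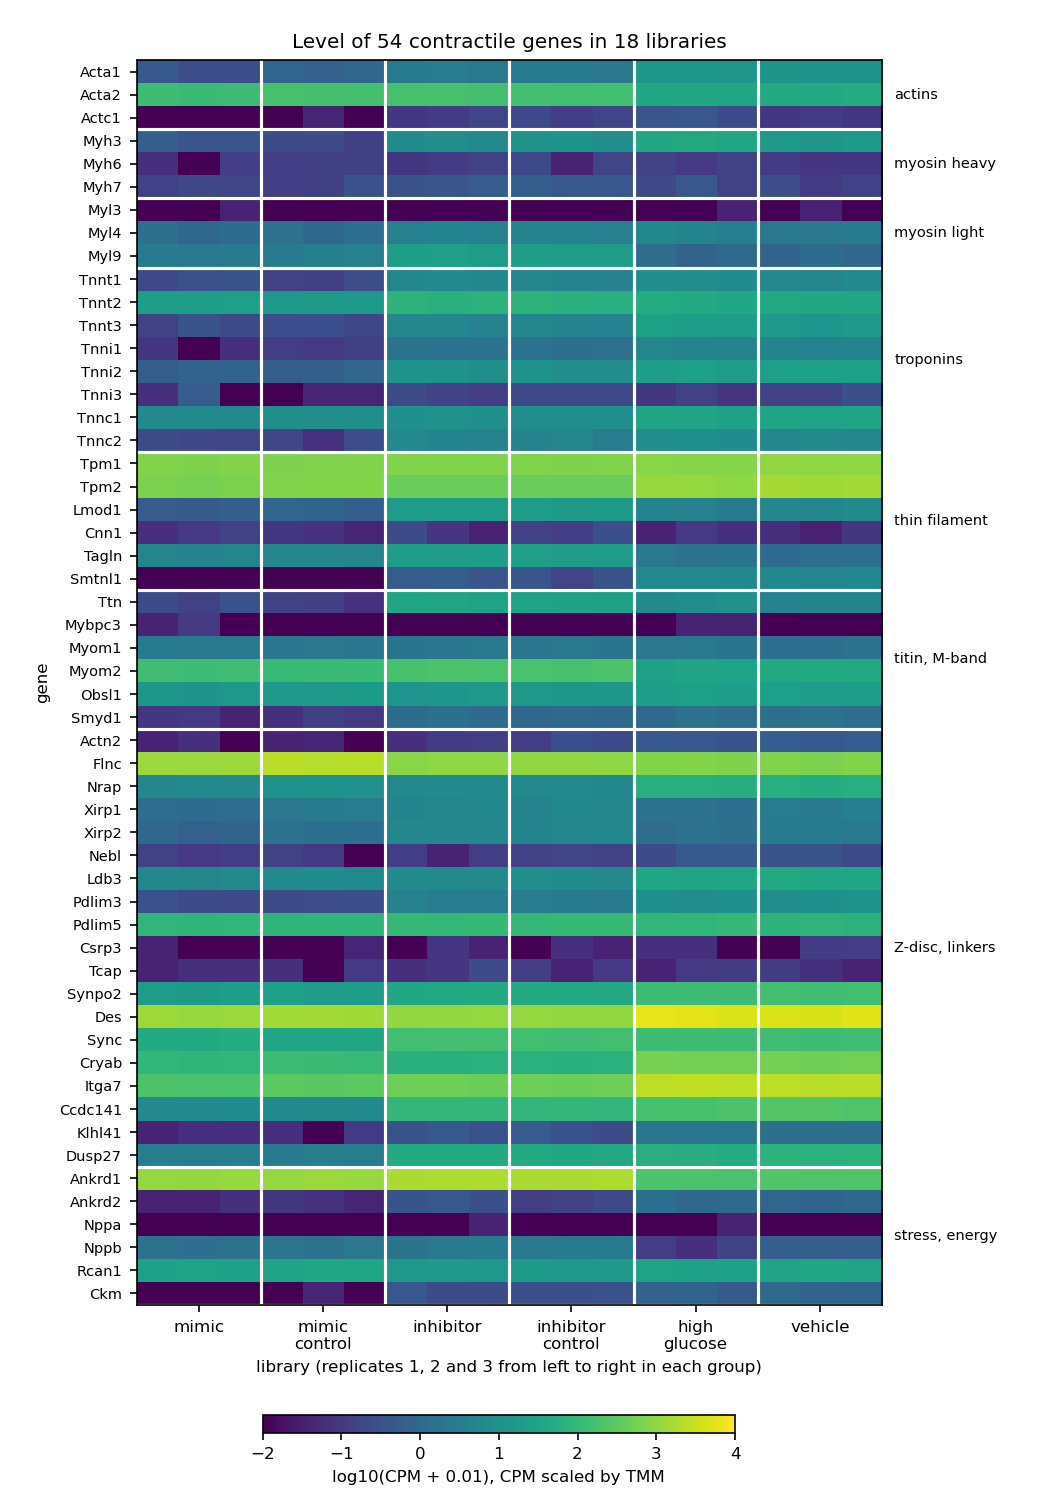
Level of each listed contractile gene in every library, as log10(CPM + 0.01) on a colour scale, with 54 genes as rows grouped by role and 18 libraries as columns in 6 groups. The skeletal myosin and troponin rows and Ttn are dark in the 6 mimic and mimic control libraries, and Nppa, Myl3 and Mybpc3 are dark in every group.

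Most defining cardiac forms were at or near 0 in every group, which goes against the labelled atrial cell type. Nppa had 2 reads over the 18 libraries, Myl3 3, Mybpc3 6, Myh6 (the adult cardiac myosin heavy chain of the mouse) 68, Actc1 77 and Tnni3 94. Of the 94 Tnni3 reads, 18 came from mimic replicate 2, against 2 and 0 in the other mimic libraries and 0, 1 and 1 in the mimic control libraries. Actc1 reached 0.369, 0.405 and 0.244 CPM in high glucose libraries, against 0.0819, 0.105 and 0.0850 CPM in vehicle libraries, and had 0 reads in all 3 mimic libraries. Of the cardiac markers outside the contractile list, Pln, the inhibitor of the cardiac calcium pump, had 1 read in all, Tbx5 33 and Ryr2, the cardiac calcium release channel, 244. Gata4, a transcription factor of heart and several other organs, averaged 8.46 to 13.1 CPM over the groups, and Nkx2-5, an early cardiac transcription factor, 0.239 to 2.21 CPM. The 11 listed genes of the cardiomyocyte list summed to 33.5 to 36.6 CPM in mimic, 31.7 to 33.0 in mimic control, 74.7 to 86.0 in inhibitor, 68.7 to 86.0 in inhibitor control, 47.3 to 61.6 in high glucose and 51.5 to 55.2 CPM in vehicle libraries, mostly from Tnnt2 and Gata4.

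The cardiac forms with the most reads were troponin T and troponin C, and Myl4 also had reads in every library. Tnnt2, cardiac troponin T, averaged 23.1 ± 1.41 CPM in mimic, 16.3 ± 1.07 in mimic control, 71.4 ± 5.65 in inhibitor, 66.5 ± 8.40 in inhibitor control, 44.3 ± 6.37 in high glucose and 40.7 ± 1.53 CPM in vehicle cells (SD, n = 3 each). Tnnc1, shared by cardiac and slow skeletal muscle, averaged 7.2 to 10.6 CPM in the 4 transfected groups, 30.5 ± 2.75 in high glucose and 30.5 ± 1.50 CPM in vehicle cells. Myl4, the atrial and embryonic essential light chain, averaged 1.33 to 5.08 CPM, and Myh7, the slow and fetal cardiac heavy chain, 0.164 to 0.491 CPM over the groups. Tnnt2 is also made in developing skeletal muscle and Tnnc1 in slow skeletal muscle, so neither is a mark of heart alone.

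Most skeletal forms averaged at least 1 CPM in the untransfected cells and in the inhibitor and inhibitor control cells. In mimic and mimic control cells, 10 of 11 were under 1 CPM, some of them well above the floor of 3 reads. Tnni2, fast skeletal troponin I, averaged 0.703 ± 0.117 CPM in mimic, 0.713 ± 0.188 in mimic control, 11 ± 0.965 in inhibitor, 9.89 ± 1.10 in inhibitor control, 22.7 ± 2.63 in high glucose and 24.8 ± 0.837 CPM in vehicle cells (SD, n = 3 each). The list of 11 skeletal forms had 10 under 1 CPM in mimic and 10 in mimic control, 3 in inhibitor, 3 in inhibitor control, 1 in high glucose and 2 in vehicle cells. The skeletal form above 1 CPM in the mimic and mimic control cells was Myom2, the M-band myomesin of fast skeletal and cardiac muscle, at 141 ± 6.70 and 122 ± 4.14 CPM. Myf5, a transcription factor of muscle precursors, averaged 13.3 ± 0.515 CPM in mimic, 10.1 ± 0.352 in mimic control, 52.6 ± 1.11 in inhibitor, 53.3 ± 1.85 in inhibitor control, 15.1 ± 1.95 in high glucose and 8.88 ± 0.940 CPM in vehicle cells. Skeletal muscle markers did not all follow Myf5. Of a list of 8, all tested, 3 were called higher and 3 lower in inhibitor control than in high glucose cells. Over all genes, 40.1% were higher and 39.3% lower there. In mimic control against high glucose cells, 0 of the 8 were higher and 8 lower, where 39% and 39.9% of all genes were. However, 4 of the 8 had at most 3 reads in each mimic control library and passed the low-count filter only through other groups. Their low level in mimic control beside some other group therefore came with being tested.

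Of the 8 smooth muscle forms, 7 had reads in every group, and Smtnl1 did not. Among the 7, calponin (Cnn1) was near 0 in every group, with only 59 reads in all, fewer than Myh6, Actc1 or Tnni3. Acta2, smooth muscle actin, averaged 128 ± 5.59 CPM in mimic, 173 ± 3.29 in mimic control, 175 ± 4.82 in inhibitor, 156 ± 5.35 in inhibitor control, 36.9 ± 3.03 in high glucose and 48.1 ± 2.63 CPM in vehicle cells. Smtnl1, a smoothelin-like protein of smooth and skeletal muscle, had 0 reads in all 6 mimic and mimic control libraries, 0.372 to 0.589 CPM in inhibitor, 0.168 to 0.394 in inhibitor control, 6.36 to 6.87 in high glucose and 5.61 to 6.29 CPM in vehicle libraries. Per length, on the authors' FPKM scale, Acta2 stood at 16.9 FPKM in high glucose cells against 9.18 for Acta1 and 0.210 for Actc1. In high glucose and vehicle cells, the most abundant of the contractile genes per length was Des, the muscle intermediate filament, at 1457 and 1258 FPKM. Cryab (380 and 358 FPKM), Tpm2 (373 and 517) and Itga7 (324 and 305) followed in these 2 groups. In every transfected group Ankrd1, a stretch-responsive gene, stood above Des, at 371 against 312 FPKM in mimic and 609 against 287 FPKM in inhibitor cells.

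In high glucose, Myh3, Myl4, Ttn and the skeletal troponin genes Tnnt1, Tnnt3 and Tnnc2 were higher than in vehicle, and Acta2, Tpm1, Tpm2, Xirp1 and Xirp2 were lower. Of 11 skeletal forms, 4 were higher, 1 was lower and 6 were not called. Among the 45 tested contractile genes, 10 were higher and 13 lower by edgeR's quasi-likelihood test (adjusted p under 0.05 after Benjamini-Hochberg over all tested genes). Over the whole table the same test put 12% of genes higher and 12.2% lower. The median log2 fold change was 0.08 over the contractile genes and 0.00 over all genes.

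Myh3 (chr11:66969126-66993117, plus strand, GRCm39), the embryonic skeletal myosin heavy chain, had 39.7, 43.0 and 33.9 CPM in high glucose libraries, against 16.7, 15.3 and 16.8 CPM in vehicle libraries. Every high glucose library lay above every vehicle library, a 2.39-fold higher level (log2 1.26 ± 0.11 SE, adjusted p = 7.14e-08). Ttn (chr2:76534136-76812891, minus strand) had 7.29, 8.70 and 10.6 CPM in high glucose libraries and 4.53, 5.01 and 4.96 CPM in vehicle libraries. The groups again did not overlap (log2 0.88 ± 0.12, adjusted p = 2.08e-05), although limma on log2(FPKM + 1) gave Ttn an adjusted p of 0.0944 with a change of 0.05 on its scale. Per length, Ttn averaged only 0.0733 FPKM in high glucose cells. Myl4 had 6.27, 5.06 and 3.90 CPM in high glucose libraries and 2.56, 2.35 and 3.00 CPM in vehicle libraries (log2 0.94 ± 0.18, adjusted p = 0.000732), also without overlap.

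Troponins of skeletal muscle moved less. Tnnt3, fast troponin T, had 25.2, 23.0 and 19.2 CPM in high glucose libraries and 16.6, 14.6 and 16.7 CPM in vehicle libraries (log2 0.49 ± 0.12, adjusted p = 0.00402; 0.0586 with limma on log2(FPKM + 0.1)). Tnnt1, slow troponin T, averaged 9.01 ± 0.823 CPM in high glucose cells, against 6.46 ± 0.938 CPM in vehicle cells (log2 0.48 ± 0.13, adjusted p = 0.00872, or 0.0530 without vehicle replicate 2). Tnnc2, fast troponin C, averaged 8.90 ± 1.03 CPM in high glucose cells, against 6.23 ± 0.316 CPM in vehicle cells (log2 0.51 ± 0.16, adjusted p = 0.0256). Its call was lost without vehicle replicate 1 (0.0801) or 3 (0.0824) and without high glucose replicate 1 (0.0740) or 2 (0.103). The other 4 tested troponins, Tnnt2, Tnni1, Tnni2 and Tnnc1, were not called.

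Tagln, the actin-binding protein transgelin of smooth muscle, averaged 2.11 ± 0.368 CPM in high glucose cells, against 1.45 ± 0.166 CPM in vehicle cells (log2 0.55 ± 0.14, adjusted p = 0.00702, or 0.0567 without high glucose replicate 1). Myom1, the M-band myomesin, averaged 2.33 ± 0.203 CPM in high glucose cells, against 1.62 ± 0.146 CPM in vehicle cells (log2 0.52 ± 0.13, adjusted p = 0.00738, or 0.0512 with no filter on low counts). Both were without overlap between the groups. Pdlim5, a Z-disc protein with PDZ and LIM domains, was higher by 0.30 ± 0.053 (log2, adjusted p = 0.000383). Des was called at 0.22 ± 0.074 (adjusted p = 0.0349) with overlapping libraries, and that call was lost without vehicle replicate 1 (0.103) or 2 (0.140) and without high glucose replicate 1 (0.162) or 2 (0.125).

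The lower genes included the Xin proteins Xirp1 and Xirp2, which bind actin at intercalated discs and at damaged sarcomeres. Xirp1 had 1.73, 1.79 and 1.43 CPM in high glucose libraries and 3.41, 2.87 and 3.88 CPM in vehicle libraries (log2 -1.03 ± 0.15, adjusted p = 4.89e-05). Xirp2 had 1.39, 1.82 and 1.62 CPM in high glucose libraries and 2.76, 2.93 and 2.69 CPM in vehicle libraries (log2 -0.79 ± 0.14, adjusted p = 0.000332). Neither gene overlapped between the groups. Nppb, the natriuretic peptide that a strained heart secretes, had 4, 2 and 6 reads in high glucose libraries and 23, 25 and 23 reads in vehicle libraries (log2 -2.49 ± 0.28, adjusted p = 1.98e-06), under 1 CPM in all 6.

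Among abundant thin filament genes, Tpm2, a tropomyosin of slow skeletal and smooth muscle, had 1167, 1108 and 970 CPM in high glucose libraries and 1544, 1430 and 1493 CPM in vehicle libraries (log2 -0.46 ± 0.059, adjusted p = 8.93e-06). All high glucose libraries lay below all vehicle libraries. Tpm1 was lower by a smaller step (log2 -0.24 ± 0.046, adjusted p = 0.000646). Acta2 averaged 36.9 ± 3.03 CPM in high glucose cells, against 48.1 ± 2.63 CPM in vehicle cells (log2 -0.38 ± 0.058, adjusted p = 5.92e-05), and Lmod1, the smooth muscle leiomodin that nucleates actin, averaged 3.95 ± 1.01 CPM in high glucose cells, against 6.27 ± 0.828 CPM with vehicle (log2 -0.67 ± 0.14, adjusted p = 0.00135).

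Myom2 (log2 -0.55 ± 0.064), the pseudophosphatase Dusp27 (-0.43 ± 0.062), Ldb3, a PDZ-LIM protein of the Z-disc (-0.35 ± 0.073), and Ccdc141 (-0.32 ± 0.060) were lower with adjusted p between 2.92e-06 and 0.00133. Myom1 and Myom2, both M-band myomesins, therefore had opposite signs in this comparison. Rcan1, an inhibitor of calcineurin, was called at -0.22 ± 0.059 (adjusted p = 0.0104, or 0.0554 without high glucose replicate 2), and Ankrd1, a stretch-responsive ankyrin repeat protein, at -0.20 ± 0.052 (0.00758, or 0.0510 without vehicle replicate 1). Flnc (log2 0.08 ± 0.054), Tnnt2 (0.12 ± 0.094), Myh7 (0.57 ± 0.47) and Acta1 (0.21 ± 0.10) were not called.

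**Figure D2:**
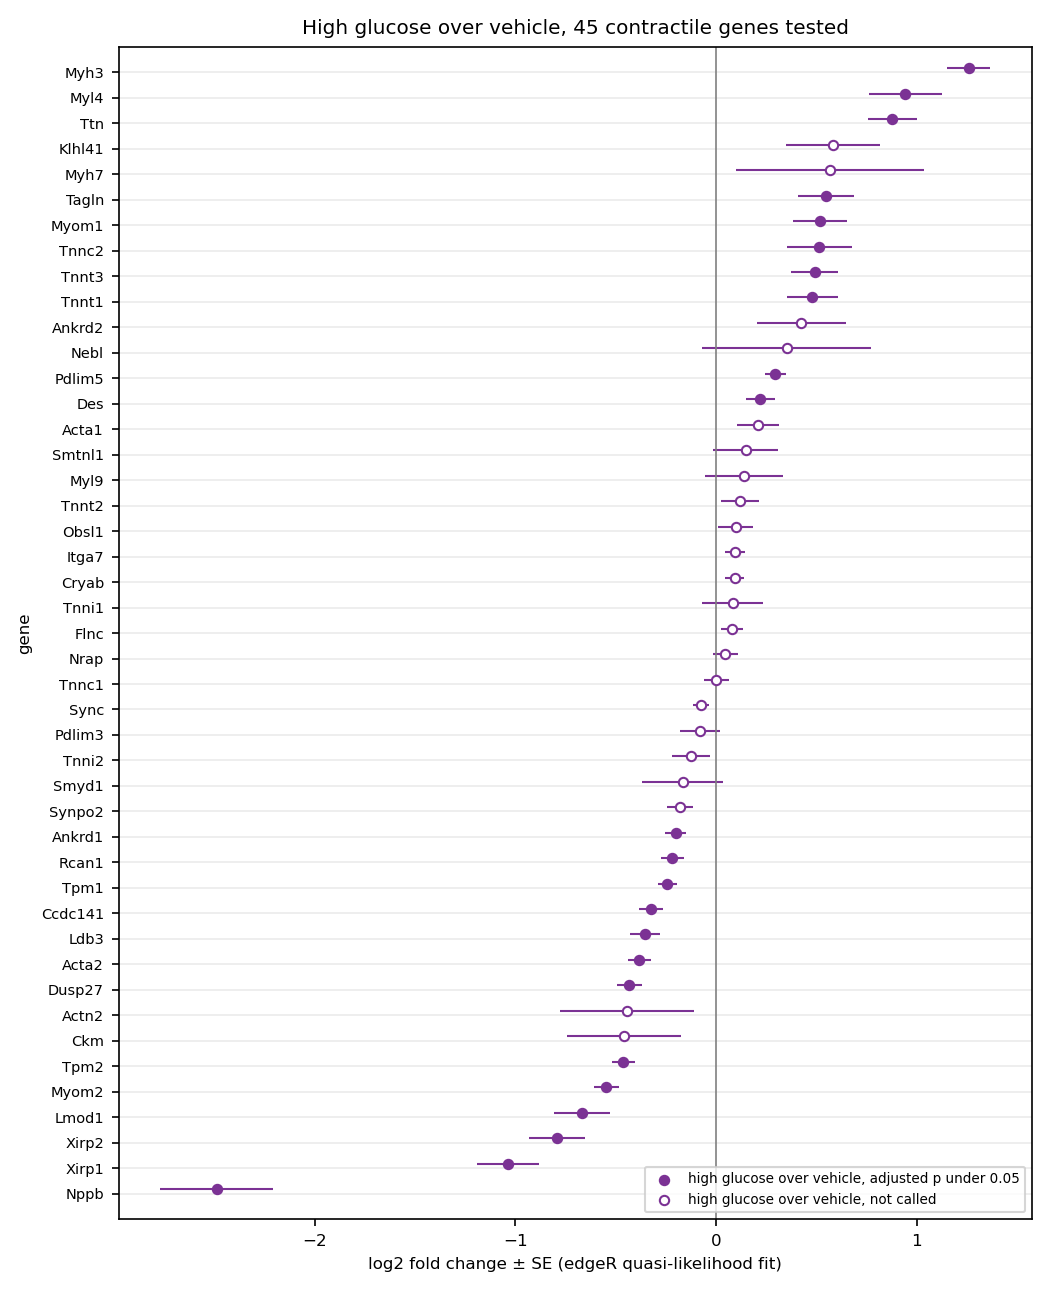
Log2 fold change of high glucose over vehicle with its SE for the 45 tested contractile genes, ordered by size, with filled points for adjusted p under 0.05. Myh3 stands at 1.26 at the top and Nppb at -2.49 at the bottom.

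With the miR-200a-3p mimic, Flnc, Nrap, Xirp1, Xirp2, Itga7 and both tested muscle actins were lower than with its negative control, and cardiac troponin T was higher. Here 4 of the 45 contractile genes were higher and 15 lower, where the share over the whole table was 15.8% higher and 18% lower. Some of the 45 had few reads in both groups, such as Smtnl1 with 0. A fit of these 2 groups only kept 31 contractile genes, of which 4 were higher and 15 lower. In that fit 2287 of 13299 genes were higher and 2626 lower. The median log2 fold change was -0.16 over the contractile genes and 0.00 over all genes. Of the 17 tested Z-disc and linker genes, 8 were lower, 1 was higher and 8 were not called. Without mimic replicate 2, the library with many macrophage reads, 4 contractile genes were called higher and 12 lower. On the deposited FPKM, limma with log2(FPKM + 0.1) called 5 higher and 11 lower, and over all genes it called 3067 higher and 1766 lower, where the count test called 2375 higher and 2712 lower.

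Flnc (chr6:29433072-29461887, plus strand), the muscle filamin that cross-links actin at the Z-disc, had the largest change in CPM, at 1284, 1259 and 1336 CPM in mimic libraries and 2337, 2206 and 2263 CPM in mimic control libraries. The groups were far apart, a 1.75-fold lower level (log2 -0.81 ± 0.055, adjusted p = 7.07e-08). Nrap, a nebulin-related protein of early myofibrils and intercalated discs, had 6.04, 6.79 and 6.54 CPM in mimic libraries and 11.1, 11.6 and 10.8 CPM in mimic control libraries (log2 -0.79 ± 0.078, adjusted p = 1.46e-06). Again no library of the first group reached the second.

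Xirp1 had 1.40, 1.22 and 1.39 CPM in mimic libraries and 2.45, 2.80 and 3.31 CPM in mimic control libraries (log2 -1.09 ± 0.16, adjusted p = 6.65e-05). Xirp2 had 0.998, 0.670 and 0.839 CPM in mimic libraries and 1.96, 1.56 and 1.55 CPM in mimic control libraries (log2 -1.01 ± 0.16, adjusted p = 0.000131). Neither gene overlapped, and both changes were near 2-fold, at 2.13-fold and 2.02-fold lower. Itga7, the laminin-binding integrin chain of muscle, averaged 202 ± 9.52 CPM in mimic and 306 ± 13.7 CPM in mimic control cells (log2 -0.60 ± 0.050, adjusted p = 4.38e-07).

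The actins were both lower. Acta2 had 134, 122 and 128 CPM in mimic libraries and 176, 170 and 174 CPM in mimic control libraries (log2 -0.44 ± 0.054, adjusted p = 1.32e-05). Acta1 lay under 1 CPM in all 6 libraries, at 0.456, 0.262 and 0.260 CPM in mimic and 0.921, 0.699 and 0.958 CPM in mimic control libraries (log2 -1.39 ± 0.22, adjusted p = 0.000103). Cryab, a small heat shock protein that holds desmin, averaged 89.7 ± 5.29 CPM in mimic and 122 ± 5.22 CPM in mimic control cells (log2 -0.44 ± 0.049, adjusted p = 4.59e-06). None of these 3 overlapped between the groups.

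Smaller decreases were called for Tnnc1 (log2 -0.40 ± 0.073), Rcan1 (-0.33 ± 0.059) and Tpm2 (-0.25 ± 0.059), with adjusted p of 0.000348 to 0.00337. Myl9 was called at -0.43 ± 0.14 (adjusted p = 0.0232), but not without mimic control replicate 2 (0.0608) or 3 (0.103). Ldb3 was called at -0.33 ± 0.091 (adjusted p = 0.00985, or 0.0536 without mimic replicate 2). Des (log2 -0.23 ± 0.074, adjusted p = 0.0245) was not called without mimic replicate 2 (0.0724) or without mimic control replicate 1 (0.0515) or 2 (0.0703). Obsl1, an obscurin-like cytoskeletal linker (-0.25 ± 0.093, adjusted p = 0.0433), was called in 1 of the 6 fits that left out a library, the fit without mimic replicate 3, and had 0.0547 to 0.144 in the other 5.

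Tnnt2 was the cardiac form that went the other way, with 23.6, 21.5 and 24.2 CPM in mimic libraries and 15.7, 17.5 and 15.6 CPM in mimic control libraries. All mimic libraries lay above all mimic control libraries (1.42-fold higher, log2 0.51 ± 0.10, adjusted p = 0.00118). Sync, the intermediate filament protein syncoilin, had 46.1, 47.7 and 50.5 CPM in mimic libraries and 35.0, 36.2 and 35.5 CPM in mimic control libraries (log2 0.44 ± 0.043, adjusted p = 1.56e-06). The exons of Sync overlap those of Rbbp4 on the other strand over 61.6% of their length, and the strand setting of the counting is not given in the sources used here, so reads of these genes may not be separated. Rbbp4 averaged 107 ± 5.64 CPM in mimic and 108 ± 5.21 CPM in mimic control cells. Myom2 was called at 0.21 ± 0.059 (adjusted p = 0.0104), and that call was lost without mimic replicate 1 (0.0647) or mimic control replicate 1 (0.0649). Myh3 was called at 1.27 ± 0.39 (adjusted p = 0.0168) at 0.470 ± 0.161 CPM in mimic and 0.192 ± 0.0594 CPM in mimic control cells, and not without mimic replicate 1 (0.122) or mimic control replicate 3 (0.0789).

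The 5 genes with a seed word in their 3′ UTR did not share a direction with the mimic. Ldb3 (log2 -0.33) and Rcan1 (-0.33) were called lower and Tnnt2 (0.51) was called higher. Synpo2, a Z-disc actin bundler (-0.15 ± 0.076, adjusted p = 0.147), and Pdlim5 (0.05 ± 0.053, adjusted p = 0.509) were not called. Among genes with larger decreases, Flnc, Nrap, Xirp2, Acta1, Itga7, Cryab and Acta2 held none of the 3 words, and Xirp1 has no 3′ UTR to search.

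**Figure D3:**
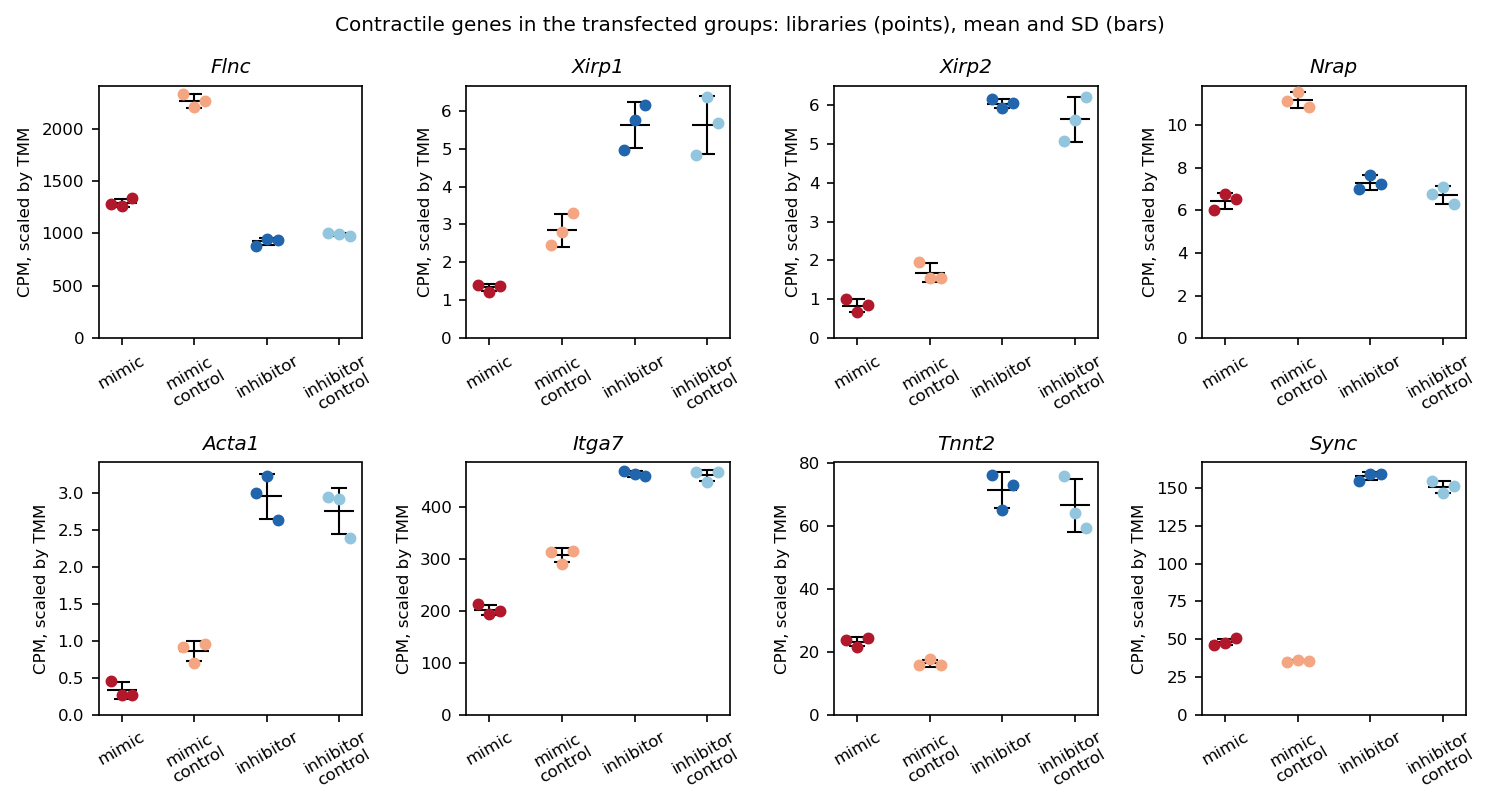
CPM of 8 contractile genes in the mimic, mimic control, inhibitor and inhibitor control libraries, 1 point per library, with the mean and SD of 3 as bars and a linear axis from 0. Flnc, Xirp1, Xirp2, Nrap, Acta1 and Itga7 are lower and Tnnt2 and Sync higher in mimic than in mimic control libraries, and the inhibitor and inhibitor control levels lie within 0.12 of each other on the log2 scale in all 8 panels.

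With the inhibitor, 0 of the 45 contractile genes were called against the inhibitor control, and 0% of the whole table was called by edgeR, with 0 genes also by DESeq2. At an unadjusted p under 0.05, 447 genes passed (2.97%). The median log2 fold change over the contractile genes was 0.04. Flnc had 881, 949 and 942 CPM in inhibitor libraries and 1007, 994 and 975 CPM in inhibitor control libraries, which did not overlap (log2 -0.10 ± 0.054, adjusted p = 1). Myh3 had 8.13, 9.16 and 7.36 CPM in inhibitor libraries and 11.7, 12.6 and 9.19 CPM in inhibitor control libraries (log2 -0.44 ± 0.12, adjusted p = 1), and it was called when no filter on low counts was applied (adjusted p = 0.00228). Tnnt2 averaged 71.4 ± 5.65 CPM in inhibitor and 66.5 ± 8.40 CPM in inhibitor control cells (log2 0.10 ± 0.092), with overlap.

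The mimic effect minus the inhibitor effect was tested as an interaction. It called 2 of 45 contractile genes higher and 10 lower, against 4.63% higher and 8.59% lower (13.2% in either direction) over the whole table (698 and 1295 genes; 850 and 752 with limma on log2(FPKM + 0.1)). The 10 lower were Acta1, Xirp2, Xirp1, Nrap, Flnc, Itga7, Acta2, Myl9, Tnnc1 and Cryab, at log2 -1.49 to -0.39, and the higher were Sync (0.37 ± 0.058, adjusted p = 0.000927) and Myh3 (1.71 ± 0.41, adjusted p = 0.00998, or 0.0533 without mimic replicate 1). For Flnc the difference was -0.71 ± 0.077 (adjusted p = 8.37e-05) and for Nrap -0.91 ± 0.11 (adjusted p = 0.000133). Without mimic replicate 2 it called 3 contractile genes higher and 10 lower. Tnnt2, at 0.40 ± 0.14, was not called (adjusted p = 0.0607), but was without mimic replicate 2 (0.0359) or inhibitor control replicate 3 (0.0458). Myl9 (-0.56 ± 0.18, adjusted p = 0.0413) lost its call in 7 of the 12 fits that left out a library, with adjusted p of up to 0.117.

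Both negative controls were also set against untransfected high glucose cells, where 10 of 11 skeletal forms and Des were lower and Ankrd1, Nppb, Acta2, Myl9 and Tagln higher. The comparisons below share the high glucose libraries, and transfection cannot be told apart from other differences in handling between these groups. In mimic control against high glucose cells, 9 contractile genes were called higher and 33 lower, where 39% and 39.9% of all genes were. Of the 33, 18 were at least 8-fold lower, where 5.06% of all genes were. Some of them, such as Ttn, Myh3 and Tnnt3, had 2 to 9 reads in each mimic control library. These passed the low-count filter only through other groups with more reads. Their low level in mimic control beside some other group therefore came with being tested. In inhibitor control against high glucose cells, 15 were higher and 27 lower, where 40.1% and 39.3% of all genes were, and 4 were at least 8-fold lower, where 1.78% of all genes were. The median log2 fold change over the contractile genes was -2.19 in mimic control and -0.77 in inhibitor control cells, against 0.01 and 0.04 over all genes.

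Skeletal sarcomere genes lay far lower in mimic control than in high glucose cells. Of 11 skeletal forms, 10 were lower and 1 (Myom2) higher in mimic control cells, all 10 by at least 8-fold, and likewise 10 lower and 1 higher in inhibitor control cells, of which 1 by at least 8-fold. The shares over all genes given above apply, and the limit of the filter holds for skeletal forms with few reads in mimic control. Myh3 had 0.230, 0.223 and 0.124 CPM in mimic control and 11.7, 12.6 and 9.19 CPM in inhibitor control libraries, against 39.7, 43.0 and 33.9 CPM in high glucose libraries. The 3 groups did not overlap, with log2 -7.63 ± 0.20 in mimic control (adjusted p = 5.52e-18) and -1.80 ± 0.11 in inhibitor control cells (adjusted p = 9.89e-12). Tnnt3 averaged 0.243 ± 0.0521 CPM in mimic control and 5.08 ± 0.593 CPM in inhibitor control, against 22.5 ± 3.07 CPM in high glucose cells (log2 -6.51 ± 0.20 and -2.14 ± 0.13). Tnnt1 (log2 -5.68 and -0.77) and Tnni1, slow troponin I (-5.46 and -1.49), followed the same order.

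Tnnc2 was lower by 5.75 in log2 in mimic control and by 0.99 in inhibitor control cells. Its exons overlap those of Ube2c on the other strand over 68.7% of their length. Ube2c averaged 54.3 ± 4.96 CPM in mimic control cells, where Tnnc2 had 0.161 ± 0.0924 CPM, so few or no reads of Ube2c were counted to Tnnc2 there. Klhl41, a kelch protein that stabilises nebulin, averaged 0.0501 ± 0.0468 CPM in mimic control and 0.349 ± 0.142 CPM in inhibitor control, against 2.30 ± 0.0077 CPM in high glucose cells. Smtnl1, with 0 reads in mimic control libraries, was at least 73.1-fold lower there than in high glucose libraries (floor of 3 reads per library), and it was 21.8-fold lower in inhibitor control cells (log2 -4.45 ± 0.22, adjusted p = 1.21e-11).

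Several low or moderate striated genes were split between the controls in the same way. Pdlim3, a PDZ-LIM protein that binds alpha-actinin, averaged 0.254 ± 0.0240 CPM in mimic control and 3.17 ± 0.116 CPM in inhibitor control, against 9.84 ± 0.618 CPM in high glucose cells (log2 -5.26 ± 0.16 and -1.64 ± 0.11). Ccdc141 averaged 7.09 ± 0.297 and 90.1 ± 2.58 CPM in these controls, against 189 ± 17 CPM in high glucose cells (log2 -4.73 ± 0.078 and -1.07 ± 0.061), and Dusp27 averaged 3.47 ± 0.279 and 42.8 ± 3.05 CPM, against 53.5 ± 4.69 CPM (-3.95 ± 0.082 and -0.32 ± 0.063). Smyd1, a methyltransferase needed for myosin assembly, was lower in mimic control cells (log2 -3.92 ± 0.30) and was not called in inhibitor control cells (-0.41 ± 0.21, adjusted p = 0.0768). Ckm, the muscle creatine kinase, and Ankrd2, an ankyrin repeat protein of stretched muscle, reached at most 1.17 and 1.53 CPM in any library. Ckm had 1 read over the 3 mimic control libraries and was 2.36-fold lower in inhibitor control than in high glucose cells (log2 -1.24 ± 0.33). Ankrd2 had 3, 2 and 1 reads in mimic control and 4, 5 and 7 reads in inhibitor control libraries. Its estimates of 19.3-fold lower in mimic control and 8.01-fold lower in inhibitor control cells rest on these few reads. The mimic control counts do not exceed the floor of 3 reads, and the limit of the filter holds for this gene. Csrp3 and Tcap, Z-disc proteins of the stretch sensor, reached at most 0.113 and 0.229 CPM in any library.

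Titin and leiomodin went opposite ways in the 2 controls. Ttn had 0.144, 0.127 and 0.0618 CPM in mimic control and 30.6, 27.3 and 25.7 CPM in inhibitor control libraries, against 7.29, 8.70 and 10.6 CPM in high glucose libraries. It was therefore lower in mimic control (log2 -6.27 ± 0.24, adjusted p = 1.72e-15) and higher in inhibitor control cells (1.65 ± 0.11, adjusted p = 2.40e-11). Ttn is a very long gene, and per length it was low in every group, with its highest average at 0.273 FPKM in inhibitor cells. In inhibitor control cells Ttn averaged 0.233 FPKM, against 4.62 FPKM for Lmod1, so the CPM of these 2 genes are not comparable as levels. Lmod1 had 0.892, 0.858 and 0.649 CPM in mimic control and 20.2, 17.1 and 18.4 CPM in inhibitor control libraries, against 4.82, 4.19 and 2.84 CPM in high glucose libraries (log2 -2.29 ± 0.19 and 2.23 ± 0.13). Tnnt2 (log2 -1.45 ± 0.10 and 0.59 ± 0.093) and Sync (-1.92 ± 0.043 and 0.16 ± 0.040) also had opposite signs.

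Ankrd1, Nppb and 3 smooth muscle forms, Acta2, Myl9 and Tagln, were higher in both controls. Of the 7 tested smooth muscle forms, 3 were higher and 4 lower in mimic control, where 39% and 39.9% of all genes were. In inhibitor control cells 4 were higher and 3 lower, where 40.1% and 39.3% of all genes were. A list of 7 smooth muscle markers summed to 444 to 463 CPM in mimic control and 339 to 384 CPM in inhibitor control, against 646 to 713 CPM in high glucose libraries. Most of the high glucose sum came from Myh11, Myocd and Smtn, as Acta2 averaged 36.9, Lmod1 3.95, Tagln 2.11 and Cnn1 0.0564 CPM there. Of the 6 tested markers, 3 were higher and 3 lower in mimic control. In inhibitor control cells 4 were higher and 2 lower, so the lower sum is not a fall of most markers. Ankrd1 averaged 1186 ± 58.3 CPM in mimic control and 1756 ± 54.5 CPM in inhibitor control, against 195 ± 7.67 CPM in high glucose cells (6.08-fold and 9.02-fold higher). Nppb had 2.30, 1.84 and 2.44 CPM in mimic control and 2.70, 2.83 and 3.12 CPM in inhibitor control, against 0.113, 0.0578 and 0.162 CPM in high glucose libraries (log2 4.25 ± 0.25 and 4.64 ± 0.24). Nppa stayed at 0 reads in both controls. Acta2 was 4.69-fold and 4.24-fold higher, and Myom2 4.09-fold and 6.31-fold. Myl9 averaged 3.74 ± 0.499 CPM in mimic control and 20.8 ± 1.18 CPM in inhibitor control, against 1.12 ± 0.293 CPM in high glucose cells (3.31-fold and 18.4-fold higher), and Tagln was 2.82-fold and 9.98-fold higher. Over 66.7% of its length, the exons of Tagln overlap those of Pcsk7 and a predicted gene on the other strand. Flnc was 3.06-fold higher in mimic control and 1.34-fold higher in inhibitor control cells.

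Of the 17 tested Z-disc and linker genes, 14 were lower and 2 higher in mimic control, where 39.9% and 39% of all genes were. In inhibitor control cells 12 were lower and 5 higher, where 39.3% and 40.1% of all genes were. Des averaged 1454 ± 31.4 CPM in mimic control and 1101 ± 33.0 CPM in inhibitor control, against 5450 ± 675 CPM in high glucose cells (3.75-fold and 4.95-fold lower). Cryab (4.58-fold and 8.32-fold lower), Itga7 (8.51-fold and 5.67-fold) and Nrap (5.20-fold and 8.65-fold) moved likewise. Ldb3 was 4.16-fold and 4.13-fold lower, and Synpo2 5.97-fold and 3.02-fold lower. Pdlim5 had small called changes, at log2 -0.13 ± 0.053 in mimic control, a call lost without high glucose replicate 3 (adjusted p = 0.269) or without mimic control replicate 1 (0.127), 2 (0.0789) or 3 (0.0616), and 0.17 ± 0.053 in inhibitor control cells, lost without high glucose replicate 2 (0.0697). The low-level calls of Myh7, Actn2 and Nebl in inhibitor control cells were also lost when some libraries were left out, with adjusted p of up to 0.143, 0.135 and 0.0718.

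**Figure D4:**
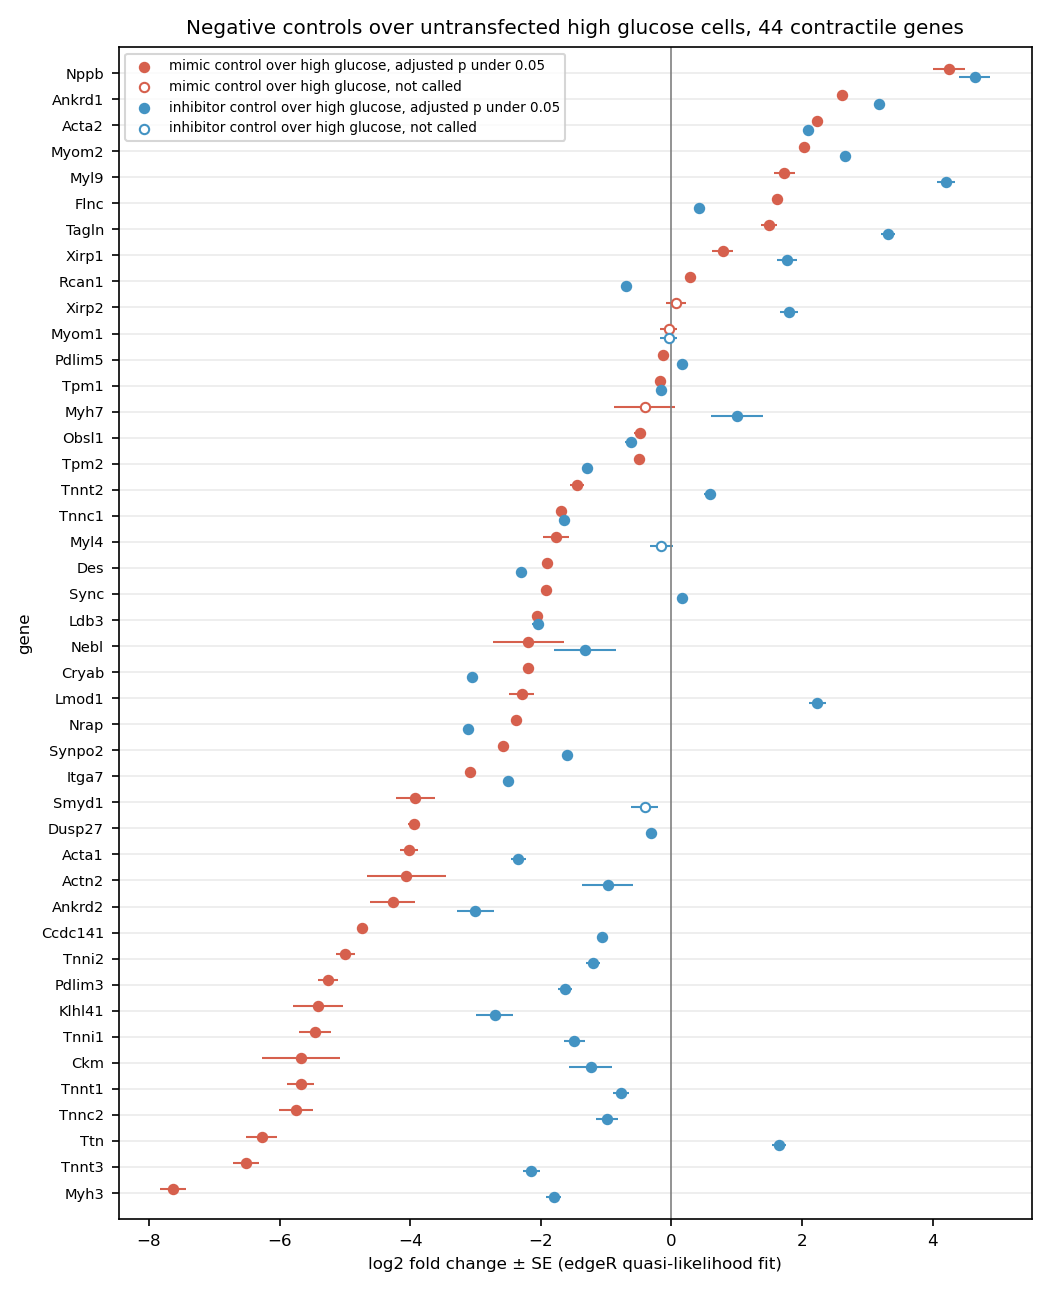
Log2 fold change with SE of mimic control and of inhibitor control over untransfected high glucose cells for 44 contractile genes (Smtnl1, at 0 reads in mimic control, is not drawn), with filled points for adjusted p under 0.05. Ttn and Lmod1 lie on opposite sides of 0 in the 2 controls, and Nppb, Ankrd1, Acta2 and Myom2 lie to the right in both.

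Set directly against each other, the inhibitor control cells had 31 of 45 contractile genes higher and 7 lower than the mimic control cells, where 38.5% and 35.7% of all genes were called. Of these, 15 were at least 8-fold higher, where 3.46% of all genes were. The limit of the filter given above for genes with few reads in mimic control holds here too. Ttn (log2 7.92 ± 0.21, adjusted p = 8.03e-17), Myh3 (5.83 ± 0.22), Tnnt1 (4.90 ± 0.22) and Tnnc2 (4.76 ± 0.28) had the largest differences. The 7 lower were Flnc (-1.19 ± 0.055), Rcan1 (-0.98 ± 0.061), Cryab (-0.86 ± 0.050), Tpm2 (-0.79 ± 0.060), Nrap (-0.73 ± 0.077), Des (-0.40 ± 0.074) and Acta2 (-0.15 ± 0.054). The Acta2 call was lost with upper quartile scaling (-0.04, adjusted p = 0.506), at a minimum count of 50 (-0.10, 0.0941) and in both limma fits on FPKM (-0.01, 0.815). The ribosomal RNA Rn18s took 0.0841 to 0.136% of reads in inhibitor control and 0.874 to 1.04% in mimic control libraries, and the part of this difference between the libraries in the results was not tested.

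Contractile genes outside the 55 are given as lists. Of 25 other striated sarcomere genes tested, 22 were lower and 2 higher in mimic control and 14 lower and 6 higher in inhibitor control than in high glucose cells (median log2 -3.90 and -0.69). Over all genes, 39.9% were lower and 39% higher in mimic control, and 39.3% lower and 40.1% higher in inhibitor control cells. The limit of the filter holds for this list too. Genes with few reads in mimic control, such as Myl1, passed it only through other groups, so their low level there came with being tested. Actn3, the fast skeletal alpha-actinin, averaged 1.46 ± 0.179 CPM in mimic control and 7.27 ± 0.840 CPM in inhibitor control, against 124 ± 7.39 CPM in high glucose cells. Myl1, the fast skeletal essential light chain, averaged 0.161 ± 0.0572 and 6.41 ± 0.426 CPM in the same 2 controls, against 9.60 ± 0.461 CPM in high glucose cells. With high glucose over vehicle, 11 of the 25 were higher and 4 lower, where 12% and 12.2% of the whole table were. Lmod2, the leiomodin of striated muscle, averaged 2.55 ± 0.383 CPM in high glucose cells, against 1.26 ± 0.0519 CPM in vehicle cells (log2 1.02 ± 0.22, adjusted p = 0.00202), and Trim54, a muscle RING finger protein, averaged 41.5 ± 3.80 CPM in high glucose cells, against 82.8 ± 7.37 CPM with vehicle. The mimic changed 2 of the 25 against its control, Trim54 (log2 -0.37 ± 0.13) and Tmod1 (-0.19 ± 0.066), both lower, where 15.8% of the whole table was higher and 18% lower.

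Cytoplasmic and non-muscle contractile genes were lower with the mimic in most of the list. Of 30 such genes tested, 19 were lower and 3 higher in mimic than in mimic control cells, beside the same whole-table shares (median log2 -0.24, against 0.00 over all genes), and 0 were called with the inhibitor. The interaction called 15 of the 30 lower and 1 higher, where 8.59% and 4.63% of all genes were. Against high glucose cells, 18 of the 30 were higher and 7 lower in mimic control, and 7 higher and 18 lower in inhibitor control cells. Over all genes, 39% were higher and 39.9% lower in mimic control, and 40.1% higher and 39.3% lower in inhibitor control cells. Tln1, the integrin adaptor talin, averaged 1207 ± 42.0 CPM in mimic and 1814 ± 28.6 CPM in mimic control cells (log2 -0.59 ± 0.064, adjusted p = 3.81e-06). The alpha-actinins Actn1 (log2 -0.50 ± 0.047) and Actn4 (-0.49 ± 0.055) fell by similar amounts. Of 8 other smooth muscle genes tested, 4 were higher and 3 lower in mimic control and 2 higher and 5 lower in inhibitor control than in high glucose cells. The shares over all genes are those just given for these comparisons. With the mimic, 4 of the 8 were lower and 0 higher, where 18% and 15.8% of all genes were: Actg2 (-0.49 ± 0.13), Smtn (-0.38 ± 0.071), Csrp1 (-0.36 ± 0.049) and Cnn2 (-0.23 ± 0.054). Of SRF and its cofactors, Mrtfa (-0.45 ± 0.065, adjusted p = 5.40e-05) and Srf (-0.29 ± 0.069, adjusted p = 0.00393) were lower with the mimic, and Mrtfb and Myocd were not called. With high glucose over vehicle, the list of non-muscle genes had 3 higher and 6 lower, shares of 10% and 20% beside 12% and 12.2% over the whole table, with Actb (-0.40 ± 0.049) and Actg1 (-0.34 ± 0.056) lower and Myh10 (0.39 ± 0.048) and Fhl1 (0.32 ± 0.053) higher.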

How the data were processed

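Whole-number read counts per gene were deposited by the authors, and per the labels' protocols they come from stranded mRNA libraries sequenced as 150 nt paired reads, trimmed with FASTX-Toolkit 0.0.13 (reads under 16 nt and reads with more than 2 N bases dropped) and aligned to GRCm39 with HISAT2 with 4 mismatches allowed. Uniquely mapped reads were counted, which lowers genes with near-identical copies, such as actins and neighbouring myosins. The authors also deposited FPKM values, used here for levels between genes and for the limma alternatives. DESeq2 is named in the submitters' processing notes without its role. The counter, annotation release and strand setting are not given in the sources used here, so overlapping genes on opposite strands are uncertain.

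The tests used edgeR 4.0.16 under R 4.3.3: filterByExpr by group (minimum count 10, minimum total 15), TMM scaling, and a quasi-likelihood fit with 1 mean per group over all 18 libraries (12 residual degrees of freedom). P-values were adjusted by Benjamini-Hochberg over 15074 genes and called under 0.05. Log2 fold changes carry their SE, levels are CPM as mean ± SD of 3 libraries, and folds against a group at 0 use a floor of 3 reads per library. Between replicates, chi-square per degree of freedom was 4.37 to 26.1, so no library was counted as a repeat of another. DESeq2 1.42.0, limma 3.58.1 on log2(FPKM + 1) and log2(FPKM + 0.1), other scalings and filters, a fit of the compared groups only, a replicate block and leaving out each library were alternatives. Full statistics were given to up to 8 called genes per direction and comparison with the largest change, at least 1 CPM and no overlap, and to a few named marker genes. The 55 genes and the other lists were chosen with earlier results of these data known. Positions and 3′ UTRs come from GENCODE M39 (GRCm39), to which all 54 listed genes were matched by gene identifier, and microRNA and promoter sequences from RefSeq (GRCm38.p6).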

Additional observations from a re-analysis of the deposited data

Results flagged for a closer look

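For 12 contractile genes the effect of the mimic against its control differed from the effect of the inhibitor against its control, by the interaction term in edgeR's quasi-likelihood fit (adjusted p under 0.05 over 15074 genes, of which 13.2% were called). The difference in log2 fold change was -1.49 for Acta1 (mimic effect -1.39, inhibitor effect 0.10), -1.11 for Xirp2 (-1.01 and 0.10), -1.09 for Xirp1 (-1.09 and -0.00) and -0.91 for Nrap (-0.79 and 0.12). It was -0.71 for Flnc (-0.81 and -0.10), -0.61 for Itga7 (-0.60 and 0.01), -0.60 for Acta2 (-0.44 and 0.16) and -0.56 for Myl9 (-0.43 and 0.13). Smaller differences were -0.53 for Tnnc1 (-0.40 and 0.13) and -0.39 for Cryab (-0.44 and -0.05). Sync, at 0.37 (0.44 and 0.07), and Myh3, at 1.71 (1.27 and -0.44), had positive differences. The Myh3 levels behind the mimic effect lay under 1 CPM. The Myl9 call was lost in 7 of the 12 fits that left out a library.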

How the results depend on the processing

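No called change of a named contractile gene reversed under the alternatives run. Of 1904 values of named genes under alternatives, 1845 kept direction and call, 48 lost the call and 11 gained one. The count of contractile genes called with the inhibitor was 1 with no filter on low counts (Myh3), against 0; over all genes it was then 26. Leaving out each library gave 20 to 24 called contractile genes for high glucose, 16 to 20 for the mimic, 0 to 0 for the inhibitor, 42 to 42 and 40 to 42 for mimic control and inhibitor control over high glucose, 38 to 40 between the controls and 11 to 13 for the interaction. The interaction over all genes called 1993, but 1304 without inhibitor control replicate 2, 1244 without replicate 3 and 1286 without mimic control replicate 1. The replicate numbers did not pair the samples (correlations of same-numbered libraries of -0.174 to 0.103), and the fit with the replicate block called 23, 19, 0, 42, 42, 38 and 12 contractile genes in the same order. In the interaction the block lost Myl9 and gained Tnnt2. Only in inhibitor control and high glucose did all 3 numbers correlate best with their own. Upper quartile scaling moved the median of all genes by 0.11, to 0.15, between the controls, and log2(FPKM + 0.1) moved it by -0.14, to -0.12, for mimic control over high glucose. Tpm1 lost its call for inhibitor control over high glucose with upper quartile scaling. Levels under about 1 CPM rest on few reads, and limma on log2(FPKM + 1) shrank their changes.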
